A study of Rattus norvegicus with 4 samples.

Results

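Immediate early genes are described here by 10 members taken by name: Fos, Fosb, Jun, Junb, Jund, Egr1, Egr2, Nr4a1, Dusp1 and Ier2. Of the 10 members, 9 had a probe on the array and all 9 passed the filter on dim signal, while no probe carried the name Fosb. They are 9 of the 20012 genes or unnamed probes tested. The tissue was pancreatic islets isolated from Sprague Dawley rats at postnatal day 14. In the group with intrauterine growth restriction (IUGR), the dams had both uterine arteries tied at embryonic day 18, which limits the blood supply of the fetuses before birth. The dams of the control group had sham surgery, and pups of both groups were born spontaneously. The labels give no mutant allele, sex, litter or number of animals per sample, so the p-values measure the spread between these samples only. Each of 4 two-colour arrays held 1 of 4 IUGR samples and 1 of 4 control samples, with IUGR in the dye Cy5 on arrays 1 and 2 and in Cy3 on arrays 3 and 4.

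Immediate early genes are switched on within minutes of a stimulus, from transcription factors that are already present in the cell, and most of their messengers are short lived. In beta cells they respond to glucose, calcium and cyclic AMP, and in many tissues also to growth factors, dissociation and stress. Fos and Jun proteins pair to form the transcription factor AP-1, the Egr proteins are zinc finger transcription factors, and Nr4a1 is an orphan nuclear receptor. Dusp1 is a phosphatase that switches MAP kinases off, and Ier2 is a nuclear protein of the same early response.

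Array 1 stood apart from the others. Taken across genes, which are no replicates, the correlation of its ratios with array 2 was 0.13, with array 3 -0.23 and with array 4 -0.30, while r among arrays 2 to 4 was 0.37 to 0.63. Before normalization the log2 difference in brightness, IUGR minus control channel, was 1.68 on array 1 and -2.42 to -1.55 on arrays 2 to 4. All 7 islet endocrine markers, Ins1, Ins2, Iapp, Gcg, Sst, Ppy and Chga, were well above background in all 8 channels. Markers of the other cell types an islet preparation can hold were measured too and stand beside the results below.

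The sequences just before the transcription start are shown for 5 members, since these genes share control elements that differ in number from member to member and their ratios differed. After loess normalization Junb, Egr1 and Nr4a1 had ratios below 0 on every array, and Jund and Egr2 had mean ratios near 0. They are the 250 bases before the annotated start in RefSeq (build GRCr8), 5′ to 3′ on the strand of the gene. That table held 8 of the 10 members. Capitals mark the cyclic AMP response element (CRE, TGACGTCA) and its shorter form TGACG, the CArG box bound by serum response factor, the EGR site GCGNGGGCG and the TATA box TATAAA, all searched on both strands.
Junb, chr19:40080876-40081125, plus strand: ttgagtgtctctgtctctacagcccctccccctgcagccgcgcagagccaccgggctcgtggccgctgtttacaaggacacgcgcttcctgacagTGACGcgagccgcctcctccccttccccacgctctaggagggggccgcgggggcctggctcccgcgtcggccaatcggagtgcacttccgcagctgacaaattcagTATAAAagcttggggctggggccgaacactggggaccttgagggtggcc
Egr1, chr18:26736828-26737077, plus strand: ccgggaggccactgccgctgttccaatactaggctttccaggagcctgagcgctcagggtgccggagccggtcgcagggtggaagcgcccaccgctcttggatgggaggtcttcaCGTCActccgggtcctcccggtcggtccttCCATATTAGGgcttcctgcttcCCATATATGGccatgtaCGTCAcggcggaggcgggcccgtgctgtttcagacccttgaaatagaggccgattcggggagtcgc
Egr2, chr20:21054442-21054691, minus strand: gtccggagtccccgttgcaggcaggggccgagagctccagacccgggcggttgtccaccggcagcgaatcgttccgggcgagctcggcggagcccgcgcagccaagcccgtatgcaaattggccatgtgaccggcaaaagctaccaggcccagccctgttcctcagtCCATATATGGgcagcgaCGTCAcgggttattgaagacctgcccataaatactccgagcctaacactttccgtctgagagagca
Nr4a1, chr7:134259888-134260137, plus strand: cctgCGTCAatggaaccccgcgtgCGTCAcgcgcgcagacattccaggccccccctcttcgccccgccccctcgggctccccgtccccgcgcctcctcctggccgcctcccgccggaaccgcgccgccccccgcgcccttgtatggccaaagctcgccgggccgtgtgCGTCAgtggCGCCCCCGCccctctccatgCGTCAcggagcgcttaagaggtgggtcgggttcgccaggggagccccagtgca
Jund, chr16:18769772-18770021, minus strand: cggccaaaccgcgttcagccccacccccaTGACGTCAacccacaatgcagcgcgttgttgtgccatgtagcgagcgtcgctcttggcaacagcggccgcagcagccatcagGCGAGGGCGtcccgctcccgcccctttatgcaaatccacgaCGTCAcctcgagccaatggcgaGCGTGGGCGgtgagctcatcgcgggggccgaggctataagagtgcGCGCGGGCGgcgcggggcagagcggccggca

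A letter match describes the sequence and does not show that a factor binds there. In the same window the short CRE form, which also counts inside a full CRE, was present in 7 of the 8 member promoters (every one but that of Fosb) and in 18.2% of all 33469 promoters in the table. The full CRE was found in 3 of the 8, those of Dusp1, Jund and Ier2, and in 1.59% of all promoters. The CArG box was found in 2, those of Egr1 and Egr2, and in 1.5% of all promoters. Egr1 and Egr2 carried a CArG box at the same distance, 83 to 74 bases before the start, and a short CRE form 66 to 62 bases before it. Egr1 had a second CArG box 105 to 96 bases before the start. The EGR site was in 2 member promoters, Nr4a1 and Jund, with 3 copies in Jund, and in 4.29% of all promoters. The TATA box letters were in 2, Fosb and Junb, and in 12.9% of all promoters. The AP-1 site TGANTCA was in 0 of the 8 and in 6.34% of all promoters.

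Which of these genes differed in islets of growth-restricted pups was the question put to the ratios. None of the 9 members passed the test, and the same was true of every gene on the array: limma called 0 of 20012 genes (0%) at an adjusted p under 0.05. Fos, Junb, Egr1 and Nr4a1 had the lowest mean ratios, from -0.93 to -0.48 on the log2 scale. Jun, Dusp1 and Ier2 had -0.18 to -0.15, and Jund and Egr2 were near 0. A mean ratio below 0 was found in 8 of 9 members and in 47% of all genes. The median ratio was -0.18 over the members and 0.01 over all genes. Over the members it was -0.28 without array 1 and -0.31 without array 2. In a whole islet sample, fewer cells of a type and less RNA per cell cannot be told apart.

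Without adjustment, 4 of 9 members (Fos, Junb, Egr1 and Nr4a1) were at a p under 0.05 with a ratio below 0, against 6.54% of all genes. At that level 0 of 9 had a ratio above 0, against 7.13% of all genes. Ratios below 0 on all 4 arrays were found in 3 members (Junb, Egr1 and Nr4a1) and in 9.69% of all genes after loess. The same 3 members were below 0 on all 4 arrays in the Agilent processed signals and in the deposited log2 ratios. With median centring 0 members were. The share of all genes was not counted under these other settings. All members of an array share its samples and are not replicates, so these counts are a description. Control levels that all lay above every IUGR level were found in 0 of 9 members and in 1.61% of all genes.

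**Figure D1:**
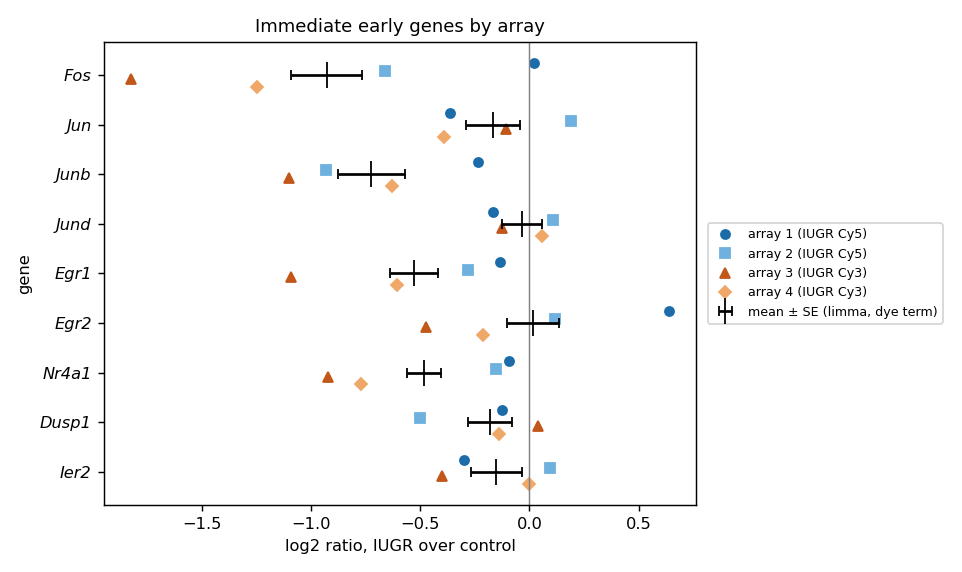
Log2 ratio of IUGR over control (horizontal axis) for the 9 measured members (vertical axis), 1 point per array, with the mean and its standard error from limma as bars, after loess. Junb, Egr1 and Nr4a1 lie below 0 on all 4 arrays, the Fos point of array 1 lies at 0.02, and the Egr2 points lie on either side of 0 by dye orientation.

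Of the AP-1 genes, Fos, whose protein pairs with a Jun protein, had the lowest mean ratio and the widest spread of the members. Its channel level, the log2 intensity of 1 channel after normalization, was 12.32, 13.00, 10.84 and 11.27 in IUGR replicates 1 to 4. It was 12.98, 12.98, 13.10 and 12.09 in control replicates 1 to 4. IUGR replicates 1 and 2 lay within the control range, so the groups overlapped. IUGR replicates 1, 3 and 4 were below the control on their own array, and control replicate 4 was the lowest control. The ratios on arrays 1 to 4 were 0.02, -0.66, -1.82 and -1.25 (SD 0.79), with a mean of -0.93 ± 0.16 (SE from a fit that removes the dye difference, n = 4 arrays). This is a level 47.4% lower in IUGR, with a 95% interval of the log2 ratio from -1.35 to -0.51 and a limma adjusted p of 0.339, the smallest the test gave for any gene. The mean of the arrays with IUGR in Cy5 was -0.32 and that of the arrays with IUGR in Cy3 was -1.54. Both orientations were below 0 for Fos, but they differed by more than the mean ratio itself. The exact two-sided sign-flip test over the 4 arrays gave p = 0.25, where 4 arrays cannot go below 0.125. The Fos probe lies at chr6:109561941-109562000 of rn4 on the plus strand.

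Junb, the Jun family member with a weaker activating domain than Jun, had ratios below 0 on every array after loess. Its channel level was 13.26, 13.85, 13.04 and 13.27 in IUGR replicates 1 to 4, against 14.09, 14.19, 14.37 and 13.67 in control replicates 1 to 4. IUGR replicate 2 again was the highest of its group and exceeded control replicate 4, which made the groups overlap. The array ratios were -0.23, -0.93, -1.10 and -0.63 (SD 0.38). Their mean of -0.72 ± 0.15 (SE, n = 4 arrays) is a level 39.5% lower in IUGR, with a limma adjusted p of 0.339. The exact sign-flip test gave p = 0.125, the smallest it can give. The means of the Cy5 and Cy3 orientations were -0.58 and -0.87, closer together than those of Fos. The probe lies at chr19:24833225-24833284 of rn4, and the promoter printed above holds 1 short CRE form and a TATA box.

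Jun, the partner that AP-1 is named with beside Fos, had array ratios of -0.36, 0.19, -0.11 and -0.39. The mean of -0.17 ± 0.12 (SE, n = 4 arrays; adjusted p = 0.465 by limma) was within the spread of the arrays, and leaving out array 1, 2 or 4 gave -0.03, -0.31 or -0.10. Its channel levels ran from 12.56 to 13.63 in IUGR and from 12.95 to 13.99 in control samples. Jund, the Jun gene that is expressed most steadily in resting cells, had -0.17, 0.11, -0.13 and 0.06, the narrowest spread of the members (SD 0.14). Its mean was -0.03 ± 0.09 (SE, n = 4 arrays; adjusted p = 0.850 by limma), with a 95% interval from -0.27 to 0.21. Within the Jun family, then, the mean ratio was lowest for Junb and nearest 0 for Jund. The differences between family members were not tested.

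**Figure D2:**
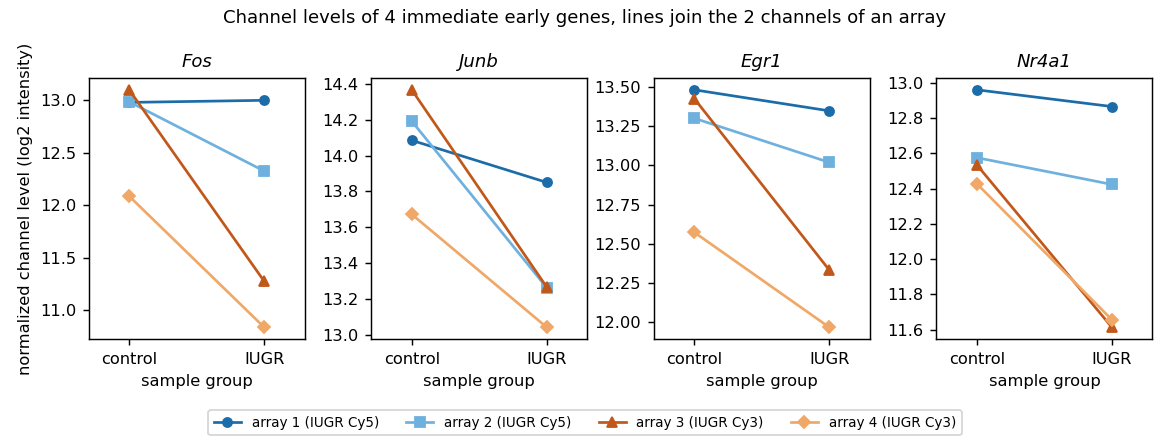
Normalized channel level (log2 intensity, vertical axis, its own range in each panel) of Fos, Junb, Egr1 and Nr4a1 in control and IUGR samples, with lines joining the 2 samples of an array. The ratios are -0.23 to 0.02 on array 1 and -1.82 to -0.61 on arrays 3 and 4, and IUGR replicate 2, on array 1, is the highest IUGR sample in each panel.

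The Egr genes had unlike ratios. Egr1, a zinc finger factor that rises in beta cells stimulated with glucose, was measured by a probe with 10 spots per array. Its channel level was 13.02, 13.35, 11.97 and 12.33 in IUGR replicates 1 to 4 and 13.48, 13.30, 13.43 and 12.57 in control replicates 1 to 4. Control replicate 4 was the low one again, and IUGR replicates 1 and 2 lay within the control range. The array ratios were -0.13, -0.28, -1.09 and -0.61 (SD 0.42). The mean was -0.53 ± 0.11 (SE, n = 4 arrays; limma adjusted p = 0.339), which is 30.6% lower in IUGR. The exact sign-flip test gave p = 0.125, its smallest value, and the orientation means were -0.21 (IUGR in Cy5) and -0.85 (IUGR in Cy3).

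A second Egr1 probe gave another answer. It had 1 spot per array and a weaker signal. Its array ratios were -0.44, 1.53, 0.70 and -0.22, with a mean of 0.39 ± 0.36 (SE, n = 4 arrays; limma adjusted p = 0.546 over all probes). The signs of both probes matched on arrays 1 and 4 and were opposite on arrays 2 and 3, where the second probe was higher by 1.81 and 1.79. In single channels the second probe was at 12.19 in control replicate 1 and at 9.96 to 10.54 in the other controls. The brighter probe lies at chr18:27347173-27347232 of rn4 and the dimmer one at chr18:27346058-27346117, their starts 1115 bases apart on the plus strand. The mean of both probes was -0.07, so the Egr1 value rests on the choice of the brighter probe. Among the 2693 genes with more than 1 tested probe, 39.3% had probes with mean ratios of opposite sign. Which Egr1 probe reports the transcript more faithfully was not tested.

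**Figure D3:**
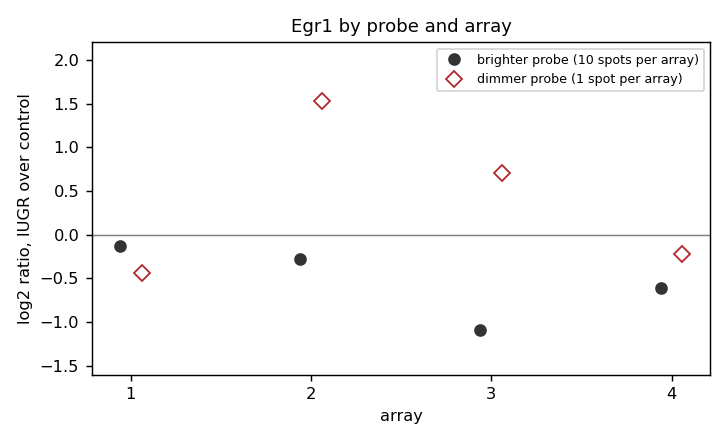
Log2 ratio of IUGR over control (vertical axis) of the 2 Egr1 probes on each of the 4 arrays (horizontal axis). The brighter probe lies below 0 on all 4 arrays and the dimmer probe reaches 1.53 on array 2 and 0.70 on array 3.

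Egr2, a relative of Egr1 known best for its role in myelination and lymphocytes, had a mean ratio of 0.02 ± 0.12 (SE, n = 4 arrays; limma adjusted p = 0.947). This mean hides ratios that followed the dye: 0.64 and 0.12 on arrays 1 and 2, and -0.48 and -0.21 on arrays 3 and 4. The dye term of the fit, Cy5 over Cy3, was 0.36. The same term was 0.36 for Nr4a1, 0.32 for Egr1 and 0.61 for Fos, and 0.00 for Jund. Egr2 channel levels were 7.57, 8.51, 6.96 and 7.10 in IUGR replicates 1 to 4 and 7.87, 7.45, 7.58 and 7.17 in control replicates 1 to 4. IUGR replicate 2 was highest and the rest overlapped. The Egr2 probe was the dimmest of the member probes, and the size of its ratios depended on the processing. In the Agilent processed signals they were 0.99, 0.14, -0.86 and -0.38 on arrays 1 to 4. Its promoter shares the placement of a CArG box and a short CRE form with that of Egr1, printed above, while the mean ratios of these genes were 0.02 and -0.53.

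Nr4a1, which like Fos is induced by calcium and cyclic AMP signals, had the smallest standard error of the members. Its channel level was 12.42, 12.87, 11.66 and 11.61 in IUGR replicates 1 to 4 and 12.96, 12.58, 12.54 and 12.43 in control replicates 1 to 4. The low samples were IUGR replicates 3 and 4, on the arrays with IUGR in Cy3, while IUGR replicates 1 and 2 differed little from the control on their array. The array ratios were -0.09, -0.15, -0.92 and -0.77 (SD 0.42). The mean was -0.48 ± 0.08 (SE, n = 4 arrays; limma adjusted p = 0.339), or 28.5% lower in IUGR, and the exact sign-flip test gave p = 0.125. The standard error leaves out the dye difference, and the orientation means were -0.12 and -0.85. Its probe had 10 spots per array and lies at chr7:140020442-140020501 of rn4.

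Dusp1, the phosphatase, had array ratios of -0.13, -0.50, 0.04 and -0.14. Its mean was -0.18 ± 0.10 (SE, n = 4 arrays; limma adjusted p = 0.366), and it was -0.28 without array 1 and -0.09 without array 2. Control replicate 1 was high, at a channel level of 9.61 against 8.66 to 8.74 in the other controls, and IUGR replicate 2 on the same array was high too, at 9.48. The 60-base Dusp1 probe spans 320 bases of rn4 (chr10:16944342-16944661), so it crosses an intron and reports spliced RNA. Ier2 had -0.30, 0.10, -0.40 and -0.0018, with a mean of -0.15 ± 0.12 (SE, n = 4 arrays; limma adjusted p = 0.478). Its channel levels ran from 13.05 to 13.87 in IUGR and from 13.05 to 14.18 in control samples, nearly the same range. Its mean was -0.05 without array 1 or without array 3, and -0.25 without array 2 or without array 4.

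Members with several spots were measured precisely within an array. Over the 4 probes with 10 spots each, the SD of the log2 ratio between spots was 0.02 to 0.11, smaller than the differences between arrays given above. Of 46 member spots, 1 was left out on at least 1 array as an outlier, 0 had an outlying background and 0 were saturated. All member probes were well above background in 4 of 4 IUGR and 4 of 4 control channels. The single-spot probes of Fos, Jun, Junb, Jund and Dusp1 have no such check.

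The samples of an array resembled each other in these genes. IUGR replicate 2 had the highest IUGR level of all 9 members, and control replicate 1, hybridised with it on array 1, had the highest control level of 7. Over all genes the same samples were highest in 25.9% and 34.2%. Control replicate 4 had the lowest control level in all 9 members and IUGR replicate 3, its partner on array 4, the lowest IUGR level in 7, against 17.1% and 23.0% of all genes. Levels of single channels carry the normalization of the whole array, and both samples of an array are read from the same spots. Whether the samples of an array were also prepared together is not given in the labels.

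Array 1, which stood apart across all genes, also had the mean member ratio closest to 0. The mean over members was -0.08 on array 1, -0.22 on array 2, -0.67 on array 3 and -0.44 on array 4. Without array 1, Fos was -1.10, Junb -0.90, Egr1 -0.56 and Nr4a1 -0.50, and their limma adjusted p-values were 0.0723, 0.0723, 0.0843 and 0.0746. Without array 1 the share of all genes that were below 0 at an unadjusted p under 0.05 also rose, to 13.7%. Without array 3 the same 4 members were at that level, against 1.63% of all genes, with adjusted p-values of 0.952. With 1 array left out, 1 dye orientation held only 1 array. The spread behind those p-values is then only the difference between the 2 arrays of the other orientation. The loess step takes out differences between dyes that vary with brightness, and the member ratios depend on it on every array. With each array centred on its median instead, Fos had 0.77, -1.41, -2.64 and -1.67 on arrays 1 to 4. After loess it had 0.02, -0.66, -1.82 and -1.25. With median centring all 9 members were above 0 on array 1 (0.23 to 0.77), where 7 were below 0 after loess. On arrays 2, 3 and 4, 8, 9 and 8 of 9 were below 0, against 5, 8 and 8 after loess. None of the members was then below 0 on all 4 arrays, a count not made over all genes. The means with median centring were -1.24 for Fos, -1.07 for Junb, -0.85 for Egr1, -0.81 for Nr4a1, -0.49 for Jun, -0.48 for Ier2, -0.37 for Jund, -0.30 for Dusp1 and 0.28 for Egr2. With the brightness difference of the channels as a covariate instead of the dye term, Fos was -0.55, Junb -0.54, Egr1 -0.36 and Nr4a1 -0.32. In that fit Jun was -0.24, Dusp1 and Ier2 -0.18, Jund -0.07 and Egr2 0.26.

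Other immediate early genes were taken from a list of 35, of which 32 were tested. Of these 32, 20 had a mean ratio below 0 (62.5%, against 47% of all genes), and the median was -0.10. At an unadjusted p under 0.05, 7 were below 0 and 3 above, against 6.54% and 7.13% of all genes, and limma called 0 after adjustment. Nr4a3, a relative of Nr4a1 as is Nr4a2, had ratios of -0.65, -0.54, -0.44 and -0.49 on arrays 1 to 4, with a mean of -0.53 ± 0.08 (SE, n = 4 arrays; limma adjusted p = 0.339). Nr4a2 had -0.74, -0.58, -0.23 and -0.36, with a mean of -0.48 ± 0.08 (SE; adjusted p = 0.339 by limma). The 3 Nr4a receptors thus had mean ratios of -0.53 to -0.48, and Nr4a2 and Nr4a3 were furthest below 0 on array 1, where Nr4a1 was nearest 0.

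Arc, a synaptic gene that is also an early response gene, had -1.09, -0.43, -1.20 and -0.70, with a mean of -0.85 ± 0.15 (SE, n = 4 arrays; limma adjusted p = 0.339). Btg2, an antiproliferative early gene, had -0.39, -0.77, -1.02 and -0.41, with a mean of -0.65 ± 0.14 (SE; adjusted p = 0.339 by limma). Ctgf, Cyr61, Atf3, Sik1, Trib1 and Dusp6 were picked after their values were seen, because they complete the counts at that p, and so were Egr3, Egr4 and Fosl2, as relatives of members. The matricellular genes Ctgf and Cyr61 had means of -0.82 and -0.74, both with their lowest ratio on array 2. Atf3, a stress-induced partner of Jun, had a mean of -0.46 made of 0.69 and 0.05 on arrays 1 and 2 and -0.98 and -1.59 on arrays 3 and 4. In the other direction were the kinase gene Sik1 (0.37), the pseudokinase gene Trib1 (0.59) and the phosphatase gene Dusp6 (0.32). Egr3 and Egr4, the remaining Egr genes, had 0.02 and -0.19, and Fosl2, the Fos relative that could be tested, had 0.03. Fosl1, Npas4 and Ptgs2 have probes but did not pass the filter on dim signal.

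**Figure D4:**
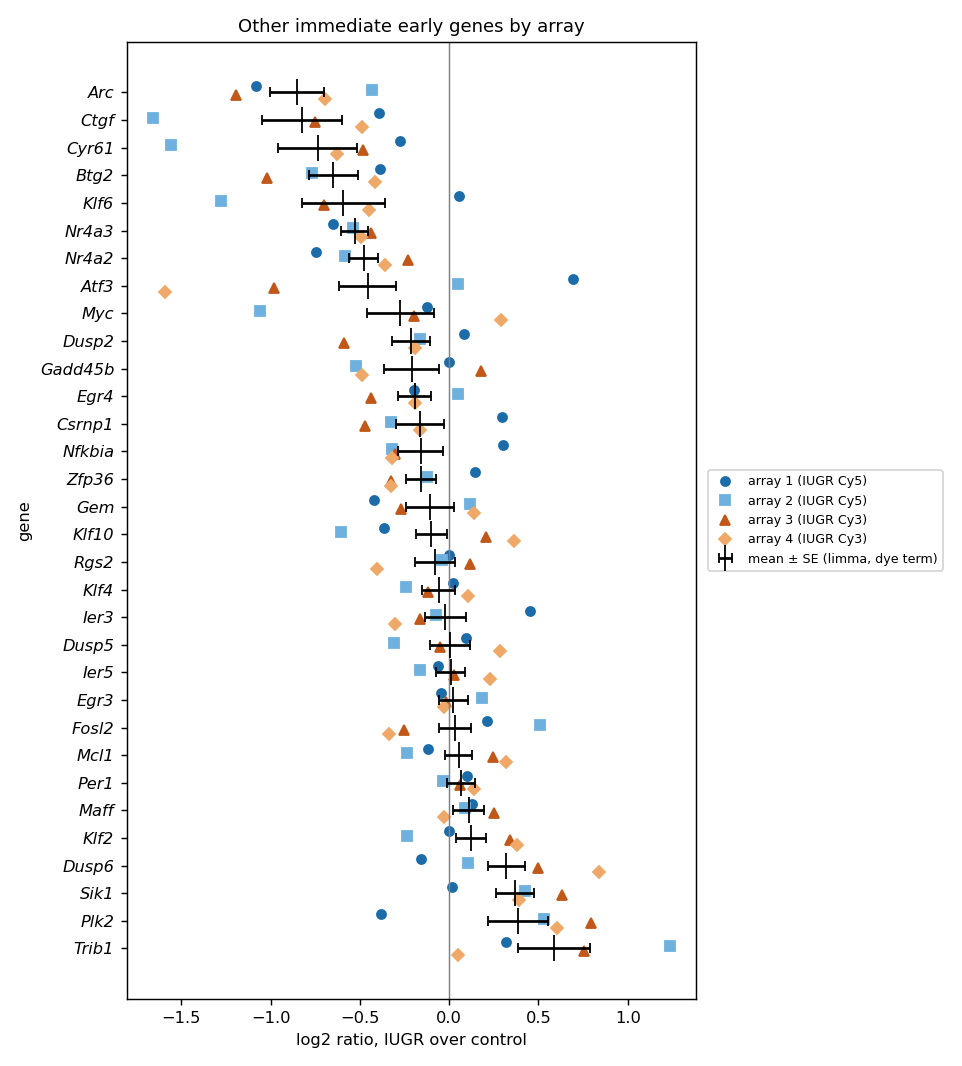
Log2 ratio of IUGR over control (horizontal axis) for the 32 tested genes of the wider list (vertical axis, ordered by mean), 1 point per array, with the mean and its standard error as bars. Arc, Ctgf, Cyr61, Btg2, Nr4a3 and Nr4a2 lie below 0 on all 4 arrays, while Sik1 and Trib1 lie above 0 on all 4.

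Of 18 genes for regulators upstream of these genes (serum response factor, its partners, CREB and MAP kinases), 6 had a mean ratio below 0. The share over all genes was 47%, and the median of the 18 was 0.03. The means ran from -0.27 for the kinase Map2k1 to 0.56 for Elk3, a partner of serum response factor. At an unadjusted p under 0.05, 1 was below 0, the calcium-dependent kinase Camk4 at -0.24 (0.01, 0.05, -0.68 and -0.35 on arrays 1 to 4), and 0 were above, where 6.54% of all genes were below and 7.13% above. Srf itself had -0.15 and Creb1 0.15, both named after their values were seen, with limma adjusted p-values of 0.353 and 0.585. Of the 11 heat shock genes, which are also induced by stress and handling, 10 were tested and 8 had a mean ratio below 0, with a median of -0.11. Hspa1b, an inducible HSP70 gene, had 0.05, -3.12, -2.03 and -2.60 on arrays 1 to 4, with a mean of -1.92 ± 0.53 (SE, n = 4 arrays; limma adjusted p = 0.339). Like Fos, it was near 0 on array 1 and below 0 on the other 3. The constitutive gene Hspa8, named after its value was seen, had -0.06.

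Markers of lymphocytes had the same order over the arrays as Fos. All 7 T and NK cell markers had mean ratios below 0, where 47% of all genes did. At an unadjusted p under 0.05, 6 of them were below 0, against 6.54% of all genes. Their array means were 0.01, -0.47, -1.72 and -0.90. Their summed level ran from 9.91 to 10.22 in IUGR and from 10.25 to 12.48 in control samples (log2 intensity). The groups did not overlap, but the highest IUGR and the lowest control level nearly met, at 10.22 and 10.25. All 4 B cell markers were below 0, with array means of 0.00, -0.29, -1.25 and -0.87 and summed levels of 8.87 to 9.84 in IUGR and 8.87 to 11.05 in control samples. Each of these 11 markers passed the filter, with 3 T and NK and 2 B cell markers well above background in all 8 channels. Cd3d had 0.03, -0.51, -2.33 and -1.33, where Fos had 0.02, -0.66, -1.82 and -1.25. The part of lymphocytes in the Fos ratio was not tested.

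Other cell types shared part of these patterns. Of 4 duct markers 3 were below 0, against 47% of all genes, with array means of -0.21, -0.62, -0.56 and -0.30. Krt19 (-0.64) and Cftr (-1.05) were below 0 on all 4 arrays, as were Junb and Egr1. Krt7 (-0.05) and Sox9 (0.05) had mean ratios near 0. The 7 islet endocrine markers had array means of 0.69, 0.60, -0.60 and -0.63, with the signs of Egr2, and summed levels of 19.14 to 20.35 in IUGR and 19.11 to 20.11 in control samples. Of these markers Sst was below 0 on all 4 arrays, and Chga had -0.03, -0.30, -0.01 and 0.17. Macrophage markers were above 0 in 4 of 6, endothelial markers in 4 of 5, and fibroblast and stellate markers in 3 of 5. Of all 20012 genes, 10602 were above 0. The 4 acinar, 2 red blood cell and 4 mast cell and granulocyte markers tested were all above 0. At an unadjusted p under 0.05, 3 macrophage, 1 endothelial and 2 fibroblast and stellate markers were above 0, against 7.13% of all genes. So were 2 red blood cell, 2 mast cell and granulocyte and 0 acinar markers, while 1 endothelial marker was below 0. Red blood cell means ran -0.25, 0.30, 1.35 and 1.08 over the arrays and mast cell and granulocyte means -0.61, 0.81, 1.16 and 0.98, the reverse of the Fos order. Acinar means were 0.53, -0.04, 2.06 and -0.32. The part of these cell types in the member ratios was not tested.

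The genes with ratios most like those of Fos over the 4 arrays were Calcb, Ptpn22, Siglec10, Birc3 and Txk, at a root mean square difference of 0.10 to 0.16. Calcb had -0.01, -0.84, -1.87 and -1.21. Nearest to the mean of the 9 members were Stap1, Scn4b, Usp53, LOC680560 and Avil, at 0.05 to 0.07. These likenesses rest on 4 arrays and on the same samples as the member ratios.

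**Figure D5:**
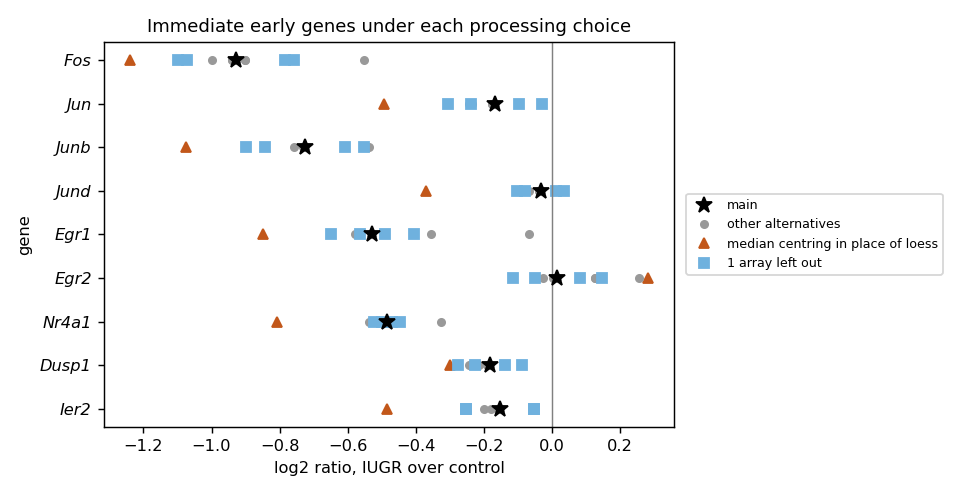
Mean log2 ratio of IUGR over control (horizontal axis) of each measured member (vertical axis) under the main processing (star), with 1 array left out (squares), with median centring in place of loess (triangles) and under the other alternatives (circles). Fos, Jun, Junb, Egr1, Nr4a1, Dusp1 and Ier2 stay below 0 under each of them, from -1.24 for Fos to -0.03 for Jun. Jund and Egr2 change sign. Some of the other alternatives cannot change a mean and lie on the star.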

How the data were processed

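Islet RNA of 4 IUGR and 4 control samples was compared on 4 arrays. The deposited scanner files hold mean signals and local backgrounds as intensity (pixel brightness) and, per the file headers, come from Agilent Feature Extraction 10.10.1.1. They also hold Agilent processed signals and a log10 ratio of Cy5 over Cy3. The deposited value table holds log2 ratios; the submitters' processing notes name limma only. Set against the scanner values, it held Cy5 over Cy3 ratios with medians of -0.029 to 0.008, and its normalization stays unknown. The members and lists were chosen with earlier results of these data known.

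In R 4.3.3 with limma 3.58.1, background was corrected with normexp (offset 50), loess was run within each array with a weight of 0 for control spots, outlying spots were left out, outlying local backgrounds were replaced by the median background of the array and channel, and spots of a probe were averaged. The brightest probe stood for a gene. Genes entered the test when measured on 4 of 4 arrays and well above background in at least 2 of 4 IUGR or 2 of 4 control channels. The contrast of IUGR over control was fitted beside a dye effect, with 2 residual and 2.75 prior degrees of freedom, and p-values were adjusted (Benjamini-Hochberg) over 20012 genes. SEs are moderated and leave out the dye difference. Channel levels were scaled between arrays by the quantiles of their average intensity. The number of arrays limits the precision. The rule for named genes took all members, up to 4 genes per list by p, and the 5 genes nearest to Fos or to the member mean; a gene named outside it is marked as chosen after its value was seen, or describes a marker list. The 19 alternatives were other backgrounds, normalizations, filters, probe rules and models, and leaving out each array.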

Additional observations from a re-analysis of the deposited data

Results flagged for a closer look

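In 27 sets of 4 values (ratios, IUGR levels and control levels of the 9 members), 2 held a sample far from the other 3. Chance alone flags about 1 set in 20. In the control levels of Fos, control replicate 4 was low, at 12.09 against 12.98 to 13.10, and its gap to the nearest sample was 0.882 of the whole range. In the control levels of Dusp1, control replicate 1 was high, at 9.61 against 8.66 to 8.74, with a gap of 0.925 of the range.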

How the results depend on the processing

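Fos, Jun, Junb, Egr1, Nr4a1, Dusp1 and Ier2 had mean ratios below 0 under all 19 alternatives. Not all of these could change a mean. The other filters, the fit without a dye term, array weights and the 8-channel fits gave each member its main value. They are no check of its sign. No member passed an adjusted p of 0.05, and the lowest by limma was 0.0723, for Fos and Junb without array 1. With median centring of each array, limma called 15 genes and left 1185 at an unadjusted p under 0.05, and the median of the members was then -0.49, with -0.05 over all genes. That number was 1472 with outlying backgrounds left out, 1482 with them kept, 1083 with channel brightness as a covariate, and 472 (without array 3) to 6204 (without array 1) with 1 array left out. Members below 0 at that p numbered 2 (Fos and Junb) with channel brightness as a covariate (2.86% of all genes), 1 (Junb) in a fit of the 8 channels without a block (5.07%), 3 with a replicate block (4.70%), 3 with the mean of all probes (6.26%) and 5 without array 2 (2.69%). In fits with 1 array left out, the p-values have the limit given above. Jund changed sign without array 1 or 3 (range over left-out arrays -0.10 to 0.036). Egr2 was -0.026 from the processed signals and -0.11 to 0.15 with 1 array left out. With the mean of all probes Egr1 was -0.07. The cause of these changes was not tested. Samples with the same replicate number did not deviate together (r from -0.28 to 0.09). They lay on different arrays in different dyes, and neither was removed first, so r cannot show whether the numbers pair them. A replicate block in the 8-channel fit called 0 genes and gave 2209 at an unadjusted p under 0.05, against 2147 without it. The count of members below 0 at that p was added after the data were seen.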
